A study of Mus musculus with 6 samples.

Results

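The Id genes Id1, Id2, Id3 and Id4 were examined in retinas of newborn mice without cyclin D1 and of wildtype newborns. They were found as every probe set on the array that the platform annotation gives to 1 gene symbol among these 4 names, which gave 8 of 34945 probe sets and 4 of 18193 named genes. The Cyclin D1 -/- group and the wildtype group each had 3 numbered pools of retinas from neonates, dissected at birth, with 1 Affymetrix expression array per pool. The sources used here do not give the number of animals in a pool, the strain or any sharing of litters, and p-values therefore cover only the spread among the pools as deposited. The study set out to relate loss of cyclin D1 to the expression of genes near which the protein binds.

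Id proteins are helix-loop-helix proteins that lack the basic region with which related factors touch DNA. They pair with the E proteins, encoded by Tcf3, Tcf4 and Tcf12, and so keep those from forming active dimers with tissue-specific basic helix-loop-helix (bHLH) activators such as the proneural factors. BMP signals acting through Smad proteins switch on Id genes in many cell types, and Id2 also binds the retinoblastoma protein. In the developing nervous system Id genes are known for holding progenitors back from differentiation, and in mice Id1 and Id3 act redundantly in forebrain neurogenesis and in blood vessel growth.

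Array medians of the deposited signal lay between 40.6 and 50.5 units, and precision is limited by the number of arrays. Levels below are log2 of the quantile-normalised signal plus 16, and differences are Cyclin D1 -/- minus wildtype. Ccnd1 was 8.86, 8.81 and 8.92 in Cyclin D1 -/- pools, against 12.43, 12.35 and 12.56 in wildtype pools, so each of the 6 pools fitted its label. The sources used here do not say whether its probe sets lie in the deleted part. Retinal transcription factor genes were bright in both groups, with Otx2 at 11.03 ± 0.12 in Cyclin D1 -/- and 11.01 ± 0.12 in wildtype pools (SD, n = 3 each) and Pax6 at 10.00 ± 0.08 in Cyclin D1 -/- and 10.05 ± 0.26 in wildtype pools. Hybridisation controls were brighter on the arrays of Cyclin D1 -/- pools 1 and 2 and wildtype pool 3 (mean log2 signal 9.82, 9.97 and 10.15). On the other 3, Cyclin D1 -/- pool 3 and wildtype pools 1 and 2, they stood at 9.53, 9.66 and 9.66. These 2 sets were cut by rank at 3 arrays each, and the values are graded with no wide gap between the sets. Pools 1 and 2 of each genotype were also the most alike pairs, with an SD of the log2 difference of 0.21 in Cyclin D1 -/- and 0.22 in wildtype, against 0.28 to 0.52 for every other pair. Results are therefore given with pool 3 set apart where this matters.

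The 4 genes lie on different chromosomes of the mouse assembly GRCm38.p6, Id1 at chr2:152736251-152737410, Id2 at chr12:25093799-25096092, Id3 at chr4:136143822-136145392 and Id4 at chr13:48261116-48266028. Upstream sequence was at hand for 3 of them, Id2, Id3 and Id4. The 250 bases before the annotated start (RefSeq, GRCm38.p6) are shown because they lie just ahead of the transcripts measured. Each is written 5′ to 3′ on the strand of its gene, with the E box CANNTG, the motif that E proteins and their bHLH partners bind, in capitals.
Id3, chr4:136143572-136143821, plus strand: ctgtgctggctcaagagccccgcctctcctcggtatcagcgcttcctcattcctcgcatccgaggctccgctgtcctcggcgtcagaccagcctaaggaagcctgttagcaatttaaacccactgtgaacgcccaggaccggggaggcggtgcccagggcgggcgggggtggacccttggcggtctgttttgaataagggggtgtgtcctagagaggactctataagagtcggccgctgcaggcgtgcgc
Id2, chr12:25096093-25096342, minus strand: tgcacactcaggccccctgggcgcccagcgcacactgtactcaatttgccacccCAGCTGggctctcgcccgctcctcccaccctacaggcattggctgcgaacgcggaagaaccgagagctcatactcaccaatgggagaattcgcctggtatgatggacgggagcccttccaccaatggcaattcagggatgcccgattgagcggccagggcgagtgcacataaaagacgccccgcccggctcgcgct
Id4, chr13:48260866-48261115, plus strand: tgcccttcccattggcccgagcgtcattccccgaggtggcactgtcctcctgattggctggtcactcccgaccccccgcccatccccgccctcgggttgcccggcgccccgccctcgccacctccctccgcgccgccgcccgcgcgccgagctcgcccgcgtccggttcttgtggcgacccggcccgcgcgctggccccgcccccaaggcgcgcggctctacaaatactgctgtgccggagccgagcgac

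The CANNTG motif, which reads the same on both strands, occurred 1 time in the Id2 window, as CAGCTG with its first base at position -196 relative to the start, and 0 times in the Id3 and Id4 windows. Of 32851 mouse upstream windows of the same length, 66.2% held it. The CCAAT motif, a common element of promoters, searched on both strands, occurred 3 times before Id2, 2 times before Id4 and 0 times before Id3, and 33.8% of all windows held it. The palindrome GGCGCC, which BMP-activated Smads are known to bind, occurred 1 time each before Id2 and Id4 and 0 times before Id3, with 9.59% of all windows holding it. The motifs searched do not overlap in these windows. G and C made up 62.8% of the Id3 window, 62.8% of the Id2 window and 75.6% of the Id4 window.

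Id3 and Id1 were higher in Cyclin D1 -/- retinas, whereas no change of Id2 or Id4 passed the test. Across the array 222 genes rose, 2.03% of the 10916 tested, and 287 fell, 2.63%, at a false discovery rate of 0.1, the submitters' own, for 4.66% called in either direction. All 4 Id genes were bright enough to be tested, and 2 of the 4 were called, both higher. Fewer cells of a type and less RNA per cell cannot be told apart in these pools.

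Id3 stood at 10.09, 10.20 and 9.93 in Cyclin D1 -/- pools 1 to 3, against 9.06, 9.03 and 8.25 in wildtype pools 1 to 3. In deposited units, before any scaling, this was a signal of 1129, 1371 and 939 in Cyclin D1 -/- pools and of 504, 459 and 269 in wildtype pools. The groups did not overlap, as upward in 10.5% of tested genes, and wildtype pool 3 was well below the other wildtype pools. Id3 averaged 10.07 ± 0.14 in Cyclin D1 -/- and 8.78 ± 0.46 in wildtype retinas (SD, n = 3 each), a rise of 2.45-fold (log2 difference 1.30, SE 0.21, 95% interval 0.81 to 1.78, limma adjusted p = 0.0169). Its difference was the 46th highest of all tested genes. Id3 is read by a single probe set, 1416630_at. Without wildtype pool 3 the log2 difference was 1.03 (adjusted p = 0.00132), and the call held when any 1 pool was left out, with the largest adjusted p, 0.0994, without Cyclin D1 -/- pool 1. With pools 1 and 2 averaged within each genotype, so that 2 samples remain on each side, it was 1.39 and not called (adjusted p = 0.174, the largest over 20 alternatives, the smallest being 9.23e-05).

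Id1 stood at 10.08, 9.83 and 9.72 in Cyclin D1 -/- pools 1 to 3, against 9.45, 9.26 and 8.90 in wildtype pools 1 to 3. The deposited signal was 1121, 1060 and 824 in Cyclin D1 -/- pools and 663, 538 and 426 in wildtype pools. These groups too lay apart, as they did upward in 10.5% of tested genes, and pool 3 was the lowest of its genotype on both sides. Id1 averaged 9.88 ± 0.18 in Cyclin D1 -/- and 9.20 ± 0.28 in wildtype retinas (SD, n = 3 each), a rise of 1.60-fold (log2 difference 0.67, SE 0.16, 95% interval 0.32 to 1.03, limma adjusted p = 0.0689). The difference ranked 145th from the top and rests on 1 probe set, 1425895_a_at. This call was less stable than that of Id3. It ended in 8 of 20 alternatives. These were fits without Cyclin D1 -/- pool 1, 2 or 3 (adjusted p = 0.281, 0.233 and 0.118), without wildtype pool 2 (adjusted p = 0.149), with no filter on dim genes (adjusted p = 0.117), without an intensity trend (adjusted p = 0.124), at a threshold of 0.05 and with the average of pools 1 and 2 in each genotype (adjusted p = 0.378, the largest over the 20, the smallest being 0.00727).

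Within the arrays with brighter hybridisation controls, Cyclin D1 -/- pools 1 and 2 against wildtype pool 3, the log2 difference was 1.89 for Id3 and 1.06 for Id1. Within the arrays with dimmer controls, Cyclin D1 -/- pool 3 against wildtype pools 1 and 2, it was 0.89 for Id3 and 0.37 for Id1. Both genes were higher in each set, by unequal amounts, and in each set 1 genotype is represented by a single array. Since the genotypes did not overlap for either gene, the direction within each set was fixed beforehand and adds no support.

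**Figure D1:**
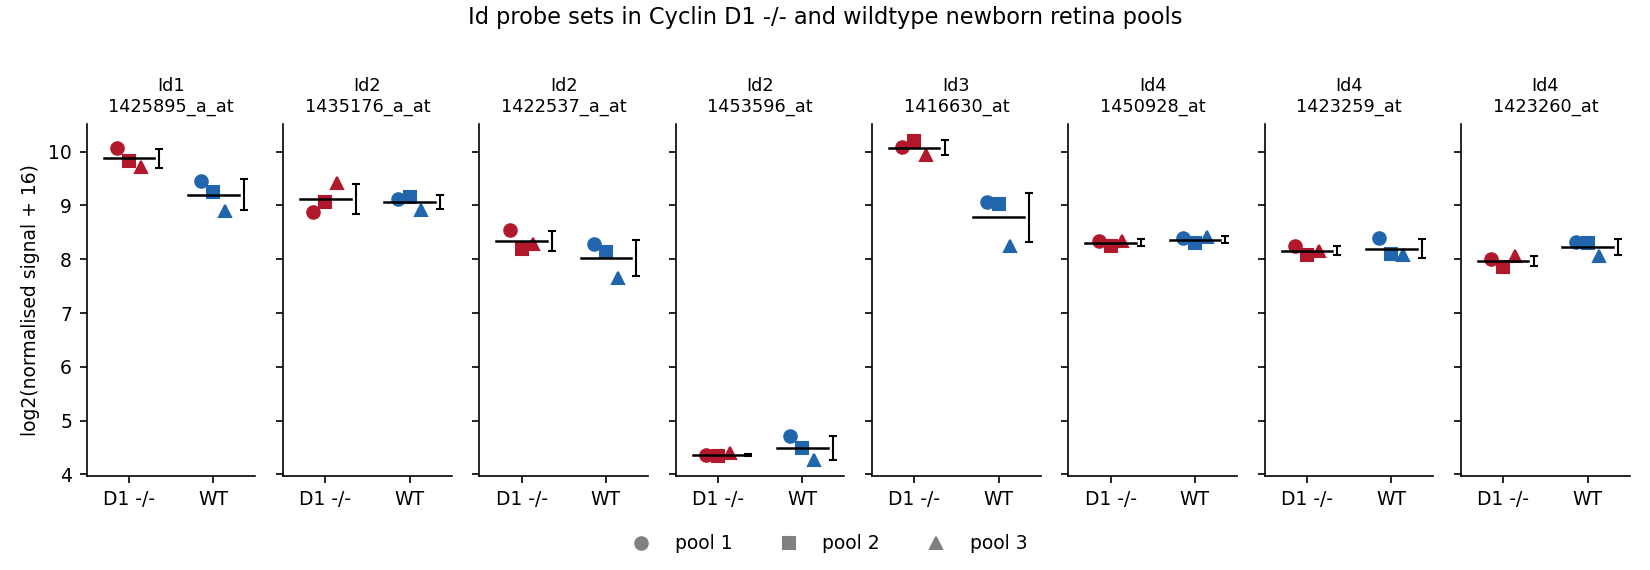
Level of each Id probe set, as log2 of the normalised signal plus 16, in the 3 Cyclin D1 -/- pools (red, left) and the 3 wildtype pools (blue, right) of each panel, with the symbol giving the pool number, the long line the mean and the bar 1 SD. The pools lie apart upward for Id1 and Id3, and levels are not comparable between probe sets.

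Id2, the member known for binding the retinoblastoma protein, is read by 3 probe sets. The brightest, 1435176_a_at, stood at 8.88, 9.06 and 9.41 in Cyclin D1 -/- pools, against 9.11, 9.16 and 8.91 in wildtype pools. The groups overlapped, with both the highest and the lowest value in Cyclin D1 -/- retinas. The log2 difference was 0.06 (SE 0.15, 95% interval -0.28 to 0.39, limma adjusted p = 0.958), so a change of the size of that of Id3 lay outside the interval. The second probe set, 1422537_a_at, stood at 8.54, 8.18 and 8.29 in Cyclin D1 -/- pools and at 8.28, 8.14 and 7.64 in wildtype pools. It differed by 0.32 (95% interval -0.09 to 0.73, adjusted p = 0.620 over all 20967 probe sets tested), and 0.13 without wildtype pool 3. The third, 1453596_at, was dim, with deposited signals of 4.37 to 4.89 units in Cyclin D1 -/- pools and 3.87 to 9.29 units in wildtype pools, and was not tested.

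Id4 is also read by 3 probe sets, all drawn from 1 sequence record in the platform annotation, so they share their target. The one with the highest mean, 1450928_at, stood at 8.34, 8.24 and 8.35 in Cyclin D1 -/- pools, against 8.39, 8.30 and 8.41 in wildtype pools. Its 6 values lay close together, and the groups overlapped. The log2 difference was -0.06 (SE 0.10, 95% interval -0.28 to 0.17, limma adjusted p = 0.929), which again leaves out a rise of the size of that of Id1 or Id3. The probe set 1423259_at differed by -0.04 (95% interval -0.32 to 0.25, adjusted p = 0.974). The probe set 1423260_at lay between 7.86 and 8.05 in Cyclin D1 -/- pools and stood at 8.32, 8.30 and 8.06 in wildtype pools. Here the groups did not overlap, as in 8.4% of tested probe sets in that direction, though wildtype pool 3 lay just above the highest Cyclin D1 -/- pool. The difference of -0.26 was not called (95% interval -0.54 to 0.02, adjusted p = 0.487). It passed the threshold without wildtype pool 3 (-0.35, adjusted p = 0.0747) and with array weights (-0.37, adjusted p = 0.0235). Of the 7 Id probe sets tested, 2 were called, both higher, against 1.51% of all tested probe sets called higher and 3.53% called in either direction.

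Whether the members differed from each other was asked within each array, as the normalised log2 level of one Id gene minus that of another. For Id3 minus Id4 this ratio was 1.75, 1.96 and 1.58 in Cyclin D1 -/- pools, against 0.66, 0.73 and -0.15 in wildtype pools, a difference of 1.35. For Id3 minus Id2 it was 1.21, 1.14 and 0.52 in Cyclin D1 -/- pools, against -0.06, -0.14 and -0.66 in wildtype pools, a difference of 1.24. The pools of the genotypes did not overlap in either ratio. Id1 minus Id4 differed by 0.73 and Id3 minus Id1 by 0.62, also without overlap. Each of these 4 pairs reached p = 0.1 in a two-sided exact permutation test, the smallest that 3 against 3 arrays can give, and p = 0.15 when adjusted over the 6 pairs. Id1 minus Id2 differed by 0.62 with overlapping pools (exact p = 0.2, adjusted p = 0.24) and Id2 minus Id4 by 0.11 (exact p = 0.6).

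**Figure D2:**
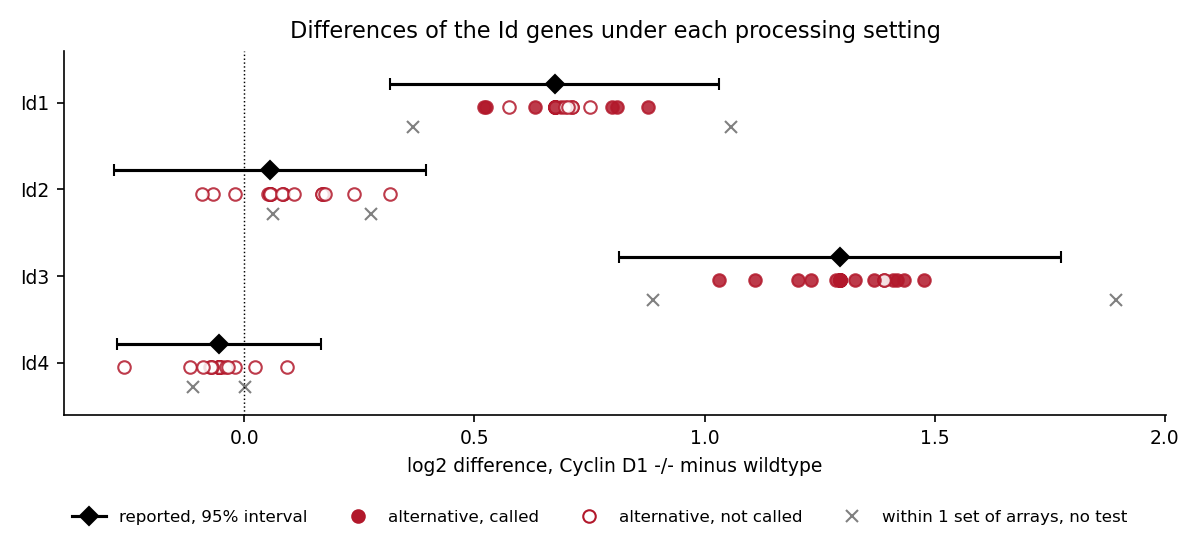
Log2 difference of each Id gene, Cyclin D1 -/- minus wildtype, as reported with its 95% interval (black diamond), under 20 alternative settings (circles, filled where called) and within each of the 2 sets of arrays (grey crosses). Id3 lies between 0.89 and 1.89 and Id1 between 0.37 and 1.06, while Id2 and Id4 fall on both sides of 0.

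The tested genes whose levels followed each member most closely were taken by Pearson correlation over the 6 arrays, the 3 highest for each, as a description. These 6 points share the genotype difference and the low values of wildtype pool 3. For Id3 they were Nid1, a basement membrane protein gene (r = 0.9999), Rhoj, a small GTPase gene (r = 0.998), and Ephb1, an ephrin receptor gene (r = 0.998). Nid1 stood at 7.16, 7.29 and 7.01 in Cyclin D1 -/- pools, against 6.09, 6.04 and 5.25 in wildtype pools, and rose by a log2 difference of 1.36 (adjusted p = 0.0227). Nid1 and Rhoj lost their calls without Cyclin D1 -/- pool 1, without pool 2 and with averaged pools (largest adjusted p = 0.213 and 0.287), and Ephb1 was not called (0.36, adjusted p = 0.222) but was in 3 of 20 alternatives. For Id1 the closest were Igfbp4, which encodes a binding protein of insulin-like growth factors (r = 0.999), Tpp1, a lysosomal peptidase gene (r = 0.999), and Ldb2, a cofactor of LIM domain proteins (r = 0.995). Igfbp4 stood at 10.90, 10.68 and 10.50 in Cyclin D1 -/- pools and at 10.19, 10.00 and 9.56 in wildtype pools, with a log2 difference of 0.77 (adjusted p = 0.0553). Igfbp4 lost its call in 7 of 20 alternatives and Tpp1 in 10 of 20. Ldb2 differed by 0.41 and was not called (adjusted p = 0.195) but was in 4 of 19 alternatives.

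Close correlations over 6 arrays were common. Of the 10916 tested genes, 443 had r over 0.9 with Id3, 374 with Id1, 124 with Id2 and 20 with Id4. For Id2 the closest genes were Qsox2, Clvs1 and Tpsg1 (r = 0.991, 0.987 and 0.983), and for Id4 they were Mc1r, Kcnip1 and Tsn (r = 0.996, 0.973 and 0.967). None of these 6 was called, with adjusted p from 0.709 to 0.996.

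The partners of the Id proteins were then described. All 3 E protein genes were tested, of which Tcf4 fell and none rose. Their median log2 difference was -0.21, beside 0.02 over all tested genes. Tcf4 was 8.72, 8.70 and 8.75 in Cyclin D1 -/- pools, against 9.38, 9.42 and 9.38 in wildtype pools, with every knockout pool below every wildtype pool, as in 9.48% of tested genes, and little spread within a genotype. It fell by 0.67 on the log2 scale (SE 0.08, limma adjusted p = 0.00546). Of its 6 probe sets, 5 differed by -0.78 to -0.52 and 1 by -0.07. The call ended only with pools 1 and 2 averaged among 20 alternatives (adjusted p = 0.201). Tcf3 differed by -0.06 (adjusted p = 0.956) and Tcf12 by -0.21 (adjusted p = 0.620), and both overlapped between the genotypes.

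Of 16 bHLH activator genes on the array, 7 passed the filter on dim genes. Among these 3 fell and none rose in the fit over genes, and the median was -0.02. Ptf1a, needed for amacrine and horizontal cells, was 5.40, 5.61 and 5.60 in Cyclin D1 -/- pools, against 8.07, 8.21 and 7.55 in wildtype pools. Its log2 difference was -2.40 (SE 0.19, adjusted p = 0.00108). The Cyclin D1 -/- levels of Ptf1a were low on this scale, and the size of its fall varied from -2.88 to -1.64 over 19 alternatives. Nhlh2, a neuronal bHLH gene, averaged 6.32 ± 0.14 in Cyclin D1 -/- and 7.61 ± 0.27 in wildtype pools (SD, n = 3 each, log2 difference -1.30, adjusted p = 0.00759). Neurog2, a proneural factor, averaged 7.36 ± 0.24 in Cyclin D1 -/- and 8.32 ± 0.28 in wildtype pools (SD, n = 3 each, log2 difference -0.96, adjusted p = 0.0323). The Neurog2 call ended in 6 of 20 alternatives, among them without Cyclin D1 -/- pool 1 or 2, without wildtype pool 1 or 2 and with averaged pools (largest adjusted p = 0.494). Atoh7, needed for ganglion cells, ran the other way at 9.58, 9.47 and 8.91 in Cyclin D1 -/- pools against 8.56, 8.70 and 7.69 in wildtype pools. Its difference of 1.00 was not called (adjusted p = 0.126) but was in 5 of 20 alternatives, among them without wildtype pool 3. In that setting 2 activators rose and 3 fell. In the fit over probe sets, the second Atoh7 probe set was called higher (0.92, limma adjusted p = 0.0913). Neurod1 differed by 0.23 and was not called (adjusted p = 0.143). Its second probe set was called higher in the probe set fit (0.45, adjusted p = 0.0918). Of the 7 tested genes of the Hes, Hey and related repressors, Hes5, a Notch target, fell to 9.62, 9.80 and 9.87 in Cyclin D1 -/- pools, against 10.63, 10.77 and 10.54 in wildtype pools (log2 difference -0.88, adjusted p = 0.00373). The other 6 differed by -0.18 to 0.22 and none was called.

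The BMP pathway, which lies upstream of Id genes in many cell types, showed no call among its receptors, Smads and related genes. This list also held Smurf1, Smurf2, Zfp423, Atoh8, Msx1 and Msx2. Of 21 listed genes 16 were tested and none passed (0 called by limma), with differences from -0.27 to 0.40 and a median of -0.06. The largest rise and the smallest adjusted p, 0.180, were those of Zfp423, which is neither a receptor nor a Smad gene. Bmpr1a, a type I receptor gene, differed by -0.17, Smad1 by -0.10 and Smad5, which like Smad1 carries BMP signals into the nucleus, by -0.07. Smad6 and Smad7, inhibitory Smad genes that are themselves induced by BMP or TGF-beta signals, differed by 0.27 and -0.27 (adjusted p = 0.851 and 0.572). Without wildtype pool 3, 1 gene of this list rose and 1 fell, and with array weights 2 rose and 3 fell. Of 16 BMP ligand and antagonist genes on the array only 5 passed the filter, and Bmp2, Bmp4, Bmp5, Bmp6 and Nog were among the 11 dim ones. The 1 call among the 5 was Fstl1, a secreted follistatin-like protein gene, which was 9.68, 9.58 and 9.22 in Cyclin D1 -/- pools against 8.44, 8.41 and 7.66 in wildtype pools. It rose by a log2 difference of 1.33 (adjusted p = 0.0197) and by 1.15 in its second probe set, and lost its call without Cyclin D1 -/- pool 1, without pool 2 and with averaged pools (largest adjusted p = 0.209).

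Of 8 tested genes whose products Id proteins bind or whose transcription they are known to affect, 2 fell, none rose, and the median was -0.06. Cdkn1b, which encodes the kinase inhibitor p27, fell to 8.96, 9.03 and 8.92 in Cyclin D1 -/- pools, against 9.51, 9.55 and 9.43 in wildtype pools (log2 difference -0.53, adjusted p = 0.0148). Its other probe set differed by -0.05, and the call ended in 4 of 20 alternatives (values as deposited, arrays centred on their medians, probe sets averaged and pools averaged, largest adjusted p = 0.334). Rbl1, a gene of the retinoblastoma family, differed by -0.71 (adjusted p = 0.0705) and lost its call in 10 of 19 alternatives, among them without any 1 pool other than wildtype pool 3. Rb1 itself stood at 7.66 ± 0.05 in Cyclin D1 -/- and 8.11 ± 0.15 in wildtype pools and was not called (SD, n = 3 each, log2 difference -0.45, adjusted p = 0.108). Cdkn1a, the p21 gene, differed by -0.06 (adjusted p = 0.954).

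**Figure D3:**
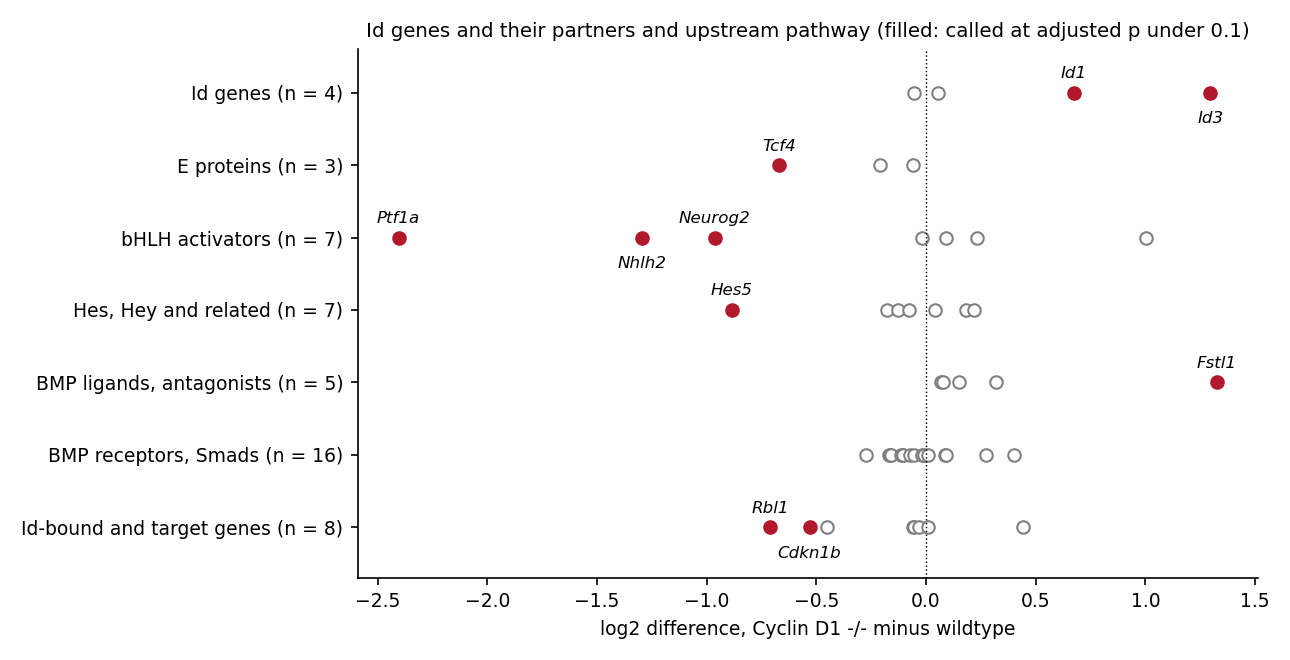
Log2 difference, Cyclin D1 -/- minus wildtype, of every tested Id gene and of every tested member of 6 lists of partners and pathway genes, filled and named where called at an adjusted p under 0.1. Id1, Id3 and Fstl1 are the called rises, and the called falls are Tcf4, Ptf1a, Nhlh2, Neurog2, Hes5, Rbl1 and Cdkn1b.

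Id1 and Id3 are known to be expressed in several tissues that a dissected retina can carry, so markers of these were measured beside them. No endothelial marker was called by limma. Their summed normalised signal over 15 genes ran from 1864 to 1883 in Cyclin D1 -/- pools and from 1880 to 1975 in wildtype pools, and 6 of the genes were bright enough for the test. Cldn5, a tight junction gene, differed by -0.79 (adjusted p = 0.133) and Robo4, a guidance receptor gene of vessels, by 0.41 (adjusted p = 0.288). Neither overlapped between the genotypes, as in 9.48% of tested genes downward and 10.5% upward. With array weights 2 of the 6 were called higher and 1 lower. Pecam1, Cdh5, Tek and Tie1 were among the 9 dim ones, and Kdr, which retinal progenitors also express, carried most of the sum. Microglial markers summed to 606 to 625 in Cyclin D1 -/- and 587 to 682 in wildtype pools, with none of 3 tested genes called.

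Lens markers and some of the mesenchymal markers did move with genotype. Lens markers summed to 29183, 28433 and 73172 in Cyclin D1 -/- pools 1 to 3, against 9874, 10208 and 3702 in wildtype pools 1 to 3, and 13 of 17 tested were called, all higher. This count was 6, 6 and 7 without Cyclin D1 -/- pool 1, 2 or 3, and 0 with averaged pools. Pericyte and mesenchyme markers summed to 2548, 2841 and 1075 in Cyclin D1 -/- pools, against 823, 848 and 731 in wildtype pools. Of 7 tested, Col1a1, a fibrillar collagen gene, and Foxd1 rose, but Col1a1 lost its call in 10 of 19 alternatives and Foxd1 in 6 of 20. Foxd1 did not follow the sum among Cyclin D1 -/- pools 1 to 3, at 7.99, 8.08 and 8.06, while Col1a1 stood at 8.69, 8.88 and 6.53. Whether Foxd1 marks mesenchyme in these pools was not tested. None of the 7 was called without pool 1 or pool 2 of either genotype, and 5 were without pool 3 of either. Wildtype pool 3 was the lowest wildtype pool for Id1, for Id3 and for both marker sums. Among the Cyclin D1 -/- pools the order differed. Pool 3 had the most lens and the least mesenchymal signal and the lowest Id1 and Id3, at 9.72 and 9.93, both still above every wildtype pool. The part of either tissue in the Id1 and Id3 results was not tested.

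Markers of glia and of the ciliary margin, the outer rim of the retina, were also higher in part. Ciliary margin markers summed to 1877, 1969 and 2013 in Cyclin D1 -/- pools, against 1251, 1297 and 1141 in wildtype pools. Of 7 tested, Rdh10, an enzyme of retinoic acid synthesis, and Wfdc1 rose, by log2 differences of 1.25 and 1.14. Rdh10 averaged 9.76 in Cyclin D1 -/- and 8.51 in wildtype pools and carried most of the rise of the sum. Bmp7, Gja1, Cdon and Cdo1 differed by 0.32, 0.72, 0.11 and 0.11 and were not called. Otx1 and Mitf were dim, and Msx1, which BMP signals can induce, differed by 0.09 (adjusted p = 0.912). Muller glia markers summed to 10989 to 11666 in Cyclin D1 -/- and 8596 to 9826 in wildtype pools, with 4 of 12 called, all higher. The count was 1 without Cyclin D1 -/- pool 1 or 2 or wildtype pool 1, and 0 with averaged pools, while 7 were higher and 1 lower without wildtype pool 3. Crym and Sox9 of this list differed by -0.41 and -0.28 and were not called (limma adjusted p = 0.123 and 0.719). Whether the genes of this list mark glia in newborn retina was not tested. Astrocyte markers summed to 1385, 1471 and 1265 in Cyclin D1 -/- pools and 887, 1186 and 735 in wildtype pools, with 0 of 5 tested genes called by limma. Slc1a3 carried most of this sum, and Slc1a3 and Aqp4 are on the Muller glia list as well. Among retinal progenitor markers 1 of 11 rose, Fgf15, which lost its call in 8 of 20 alternatives, and 3 fell, Ccnd1 included, with 5 falls without wildtype pool 3. Among retinal neuron markers 3 of 11 rose and 1 fell. Pigment epithelium markers had 1 fall among 7 tested, Pmel, which lost its call in 12 of 20 alternatives, against 1 rise and 3 falls without wildtype pool 3, and red cell markers no call among 2. The part of these cells in the Id1 and Id3 results was not tested.

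**Figure D4:**
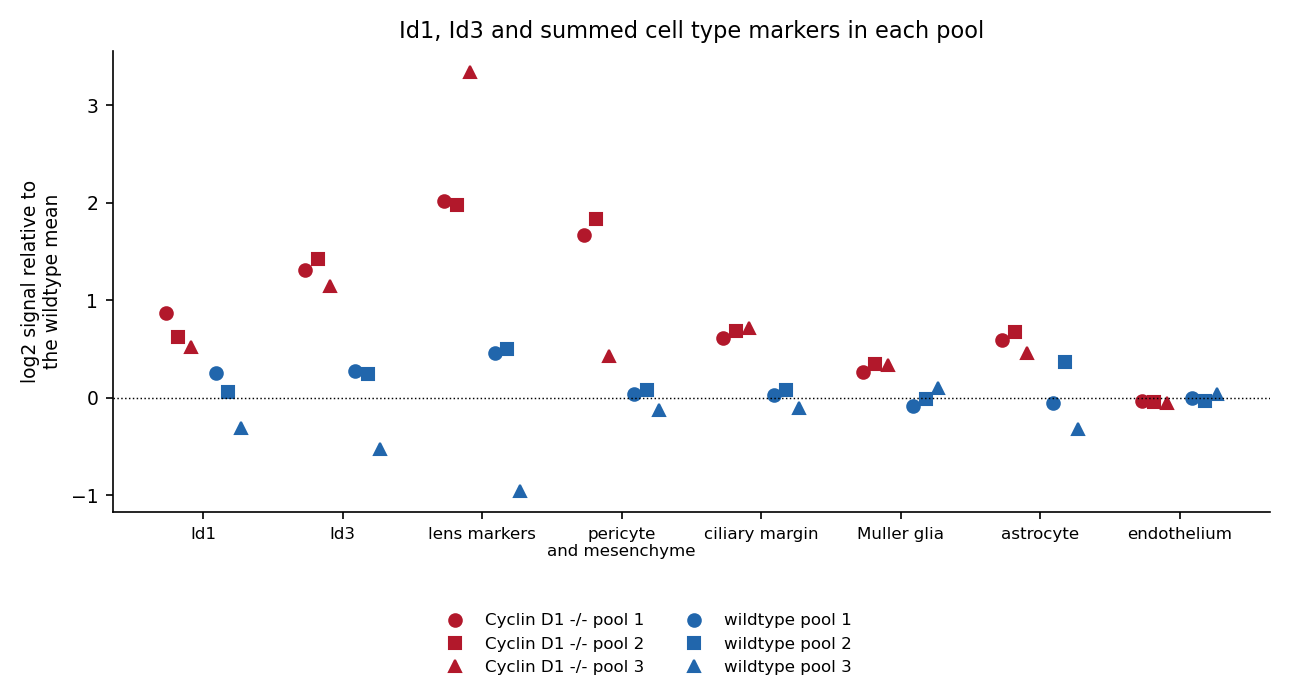
Log2 signal of Id1, Id3 and 6 summed marker lists in each pool relative to the mean of the 3 wildtype pools, with Cyclin D1 -/- pools in red on the left of each column and wildtype pools in blue on the right, and the symbol giving the pool number. Lens and mesenchymal sums spread widely among Cyclin D1 -/- pools (1.98 to 3.35 and 0.43 to 1.83), Id3 less so (1.15 to 1.42), and endothelial sums stay within 0.05 of 0.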

How the data were processed

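Per the labels' protocols, total RNA of each pool was column purified, biotin labelled after 1 amplification round and hybridised to an Affymetrix array. The deposited table holds 1 linear intensity per probe set and array. The sources used here do not give the program that made these intensity values or their scaling. The false discovery rate of 0.1 is that of the submitters' own test, per the labels.

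Of 45101 probe sets, 64 controls were left out and 34945 had 1 symbol. Of these, 34741 took the RefSeq symbol (GRCm38.p6) of their Entrez gene identifier, whether or not it differed from the annotated one. Values were quantile normalised, floored at 1 and taken to log2(value + 16), which understates folds of dim genes. The probe set with the highest mean represented a gene, and the lowest 40% of genes (7277) and of probe sets (13978) were not tested. The test, run over genes and separately over probe sets, was that of limma 3.58.1 under R 4.3.3 (lmFit, eBayes with trend), two-sided, Benjamini-Hochberg adjusted, and the fit was tested on simulated data. An unadjusted p under 0.05 was reached by 729 genes higher and 747 lower. Figures used matplotlib 3.10.9.

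Members, lists and the sets of arrays were chosen with earlier results of these data known. Named were the Id genes, Ccnd1, the 3 most correlated genes of each member, called members of 6 pathway lists and the brightest or defining markers. Uncalled genes of the lists (such as Atoh7, Rb1 and Smad1) were named after their values were seen. Alternatives covered scaling, pseudocount, filter, probe set choice, variance model, array weights, threshold, blocks, averaged pools and leaving out each array.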

Additional observations from a re-analysis of the deposited data

How the results depend on the processing

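The number of called genes, 509, was within 1.5 times of that in 8 of 20 alternatives. It was 291 with arrays centred on their medians, 322 at a threshold of 0.05, 269 with the replicate number as a block, 1030 with a block on the array sets, 3604 with array weights, 43 with pools 1 and 2 averaged and 167 to 1917 with 1 array left out. Rises made up 43.6% of calls, 70.3% with values as deposited and 53.6% with centred arrays, and the median over all genes was 0.02, 0.13 and 0.06 in the same order. The log2 difference of Id1 kept its sign in all 22 alternatives, but many of these could not turn it, since the pools did not overlap. Id1 lost its call at 0.67 with no filter on dim genes (adjusted p = 0.117) and without an intensity trend (adjusted p = 0.124). The call also ended at a threshold of 0.05 and, at 0.71, with averaged pools. With 1 array left out the difference ran from 0.52 to 0.80. The call was lost without Cyclin D1 -/- pool 1, 2 or 3 (limma adjusted p = 0.281, 0.233 and 0.118) and without wildtype pool 2 (adjusted p = 0.149). Id3 lost its call only with averaged pools (1.39) and ran from 1.03 to 1.43 with 1 array left out. In the brighter and the dimmer set of arrays the differences were 1.06 and 0.37 for Id1, 1.89 and 0.89 for Id3, and -3.73 and -3.47 for Ccnd1, and Id2 was at 0.27 in the dimmer set. Id2 was never called and turned to -0.0693 with array weights and to -0.0921 without Cyclin D1 -/- pool 3 and -0.02 without wildtype pool 3 (range with 1 array left out -0.0921 to 0.18). Id4 was never called and turned to 0.0917 with values as deposited and to 0.024 with centred arrays. Of the Id probe sets, 2 were called, against 1 with no filter, without a trend or at 0.05, 3 with array weights, 0 with averaged pools and 1 to 3 with 1 array left out.

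Same-numbered pools of the 2 genotypes did not deviate together (correlations of deviations from -0.48 to 0.17). Of the 3 Cyclin D1 -/- pools, 1 matched best with its own number. With 3 pools on each side this cannot decide whether the numbers pair the samples, and the sources used here do not say. With the replicate number as a block Id1 and Id3 were still called (adjusted p = 0.0417 and 0.0281), Neurog2 and Foxd1 were not, and lens markers had 1 call of 17 in place of 13. Signal over background could not be judged, since no detection calls were used.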
